A study of Mus musculus with 63 samples.

Results

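The miRNAs described here come from 1 end of the imprinted Dlk1-Dio3 locus of the mouse, the stretch from miR-379 to miR-410 and its flanks. They were chosen by position alone, as the loci of mature miRNAs in the count table that start between 109.65 and 109.75 Mb on chromosome 12 of GRCm38. The range held 78 rows of the 2110 in the table. A pair of rows on the opposite strand (miR-299b) carried the same counts as the rows they overlap (miR-299a) and were not counted again, which left 76 members from 39 hairpins. Of the 76, 66 had at least 1 read count in some library, 9 of these had fewer than 10 counts in all, and 10 had none.

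Small RNA was sequenced from 4 kidney cell populations sorted from male C57BL/6 mice aged 8 to 12 weeks that underwent unilateral ureteric obstruction (UUO), in which 1 ureter is tied and the kidney scars behind it. The 16 mice were in 4 groups: sham operation, 2 days of obstruction (UUO-2), 7 days of obstruction (UUO-7), and 7 days of obstruction followed by 14 days after the obstruction was relieved (R-UUO). The populations were endothelial cells (ECs, sorted as CD31+ and CD45-), macrophages (Macs, sorted as F4/80hi and CD45+), proximal tubular cells (PT cells, binding the lectin LTL) and PDGFR-β+ cells (pericytes and fibroblasts), with CD45 and CD31 absent from the last 2 gates. The labels name no transgene or deletion. There were 63 libraries, 4 in every group except PDGFR-β+ cells at UUO-7 with 3, because the authors set 1 aside as an outlier, and the mice sequenced had been picked as those closest to their group's mean of a tubular injury marker.

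The Dlk1-Dio3 locus is imprinted: the protein-coding genes are read from the paternal copy, and the long noncoding RNAs Meg3, Rian and Mirg, with the small RNAs cut from them, from the maternal copy. The miR-379 to miR-410 hairpins lie one after another in what is thought to be a single long transcript that ends in Mirg, so their mature miRNAs share a source but not a rate of cutting or decay. They are best known from brain, placenta, embryonic tissue and regenerating muscle, and are low in most adult epithelia. Several have been studied in scarring or in vessels, among them miR-154 in lung fibrosis and miR-329, miR-487b, miR-494 and miR-495 in the growth of new vessels. Each hairpin gives a 5p and a 3p arm, and the seed, bases 2 to 8 of the mature miRNA, is the part that chiefly pairs with targets.

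Sequences of 72 of the 76 members were found by name and coordinates in RefSeq on GRCm38.p6, all of them on the plus strand. The members that passed the filter on low counts span chr12:109709065-109743784, 34720 bases. In the annotation 9 members lie in exons of Mirg, 18 in its introns, and 49 upstream of it between annotated genes. The 6 members with the highest mean level are shown first, because they hold 92.0% of the counts of the 76. Each mature sequence is written 5′ to 3′ with its seed in capitals.
miR-411-5p: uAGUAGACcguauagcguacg
miR-541-5p: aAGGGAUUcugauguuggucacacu
miR-409-3p: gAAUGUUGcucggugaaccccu
miR-300-3p: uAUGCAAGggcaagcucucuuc
miR-410-3p: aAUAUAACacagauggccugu
miR-381-3p: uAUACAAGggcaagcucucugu

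The pair miR-300-3p and miR-381-3p, cut from neighbouring hairpins, differ at 3 of 22 bases, counted from the 5′ end with miR-300-3p first: G4A in the seed, and U21G and C22U at the 3′ end. Among the 34 members that passed the filter and had a sequence there were 33 seeds, and the only one held by more than 1 of them was shared by miR-379-3p and miR-411-3p. They come from the hairpins at the start of the cluster and differ by U10C and U22C (miR-379-3p first).
miR-379-3p: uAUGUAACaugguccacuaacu
miR-411-3p: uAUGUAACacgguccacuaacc

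A feature that the choice by position did not use is the start of the 5p arms. The letters GGU stand at bases 2 to 4 of 14 of the 36 5p arms with a sequence (38.9%), against 9 of 643 5p arms of all other mouse miRNAs in the RefSeq table (1.4%). The motif was looked for after the sequences had been seen, and is given as a description without a test. Of these arms, 3 passed the filter on low counts.
miR-379-5p: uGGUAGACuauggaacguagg
miR-299a-5p: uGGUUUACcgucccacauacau
miR-409-5p: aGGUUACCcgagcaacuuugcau

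The sorted populations carried the miRNAs that mark them. The summed level of miR-126a-3p and miR-126a-5p (endothelial) was 93085 to 173165 CPM (counts scaled to library size) in EC libraries and 465 to 3523 CPM in PDGFR-β+ libraries. The 8 stromal markers of the miR-143/145 and miR-199/214 families together reached 93211 to 403094 CPM in PDGFR-β+ libraries and 7729 to 46289 CPM in EC libraries. Library totals ran from 616565 to 10819385 counts and were smallest in PT cells, where 3 counts correspond to 0.674 to 4.13 CPM. CPM here are scaled with TMM factors, over all 63 libraries where cell types are set side by side and within 1 cell type where conditions are compared.

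In the sham kidney the cluster was an endothelial signal. The summed level of the members was 1558 ± 208 CPM (SD, n = 4 mice) in ECs, 246 ± 128 CPM (n = 4) in PDGFR-β+ cells, 15.8 ± 21.6 CPM (n = 4) in Macs and 12.1 ± 3.33 CPM (n = 4) in PT cells. Every EC library (1282 to 1771 CPM) lay above every PDGFR-β+ library (122 to 416 CPM), and those above every Mac and PT library. Macs and PT cells overlapped (1.35 to 47.8 and 7.49 to 15.3 CPM).

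At UUO-7 the order of the stromal and the endothelial cells was the reverse. In PDGFR-β+ cells the sum was 383 ± 167 CPM at UUO-2 (n = 4) and 5053 ± 2312 CPM at UUO-7, where the 3 libraries held 5569, 2527 and 7063 CPM and all lay above every other library of the study except 1 of R-UUO PDGFR-β+ cells. In ECs it was 834 ± 283 CPM at UUO-2 and 744 ± 309 CPM at UUO-7 (n = 4 each), and each of these 8 libraries was below the lowest sham EC library. Depth differed too. EC library totals were 7395010 to 10819385 counts in sham, 2792366 to 6386820 at UUO-2 (no overlap with sham) and 4813390 to 9684160 at UUO-7. The part of depth in these levels was not tested. In shares of the library, the members took 0.108% ± 0.0190 of the counts of sham ECs and 0.501% ± 0.265 of those of UUO-7 PDGFR-β+ cells. In sorted populations sequenced in bulk, a change in which cells the gate holds and a change in RNA per cell cannot be told apart.

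**Figure D1:**
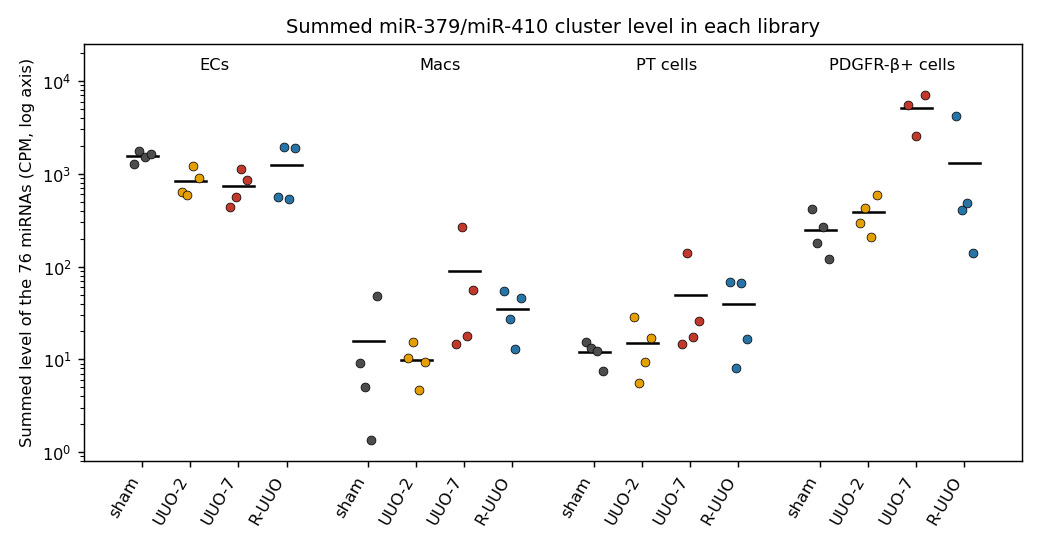
Summed level of the 76 members (CPM scaled over all 63 libraries, log axis) in each library, by cell type and condition, with 1 point a library and a bar at the mean of each group. ECs lead in sham (1282 to 1771 CPM), PDGFR-β+ cells lead at UUO-7 (2527 to 7063 CPM), and 1 library stands far above the other 3 in R-UUO PDGFR-β+ cells.

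The other end of the same locus was measured beside it. The 34 miRNA loci that start from 109.5 Mb up to the first of the range (the Meg3 and Rtl1 side) summed to 3891 ± 626 CPM in sham ECs and 7505 ± 2837 CPM in UUO-7 PDGFR-β+ cells. For each count there, the members had 0.402 ± 0.0240 counts in sham ECs (range 0.377 to 0.433, n = 4) and 0.657 ± 0.0733 in UUO-7 PDGFR-β+ cells (0.591 to 0.736, n = 3). In sham PDGFR-β+ cells this ratio was 0.458 ± 0.0559 and at UUO-2 0.746 ± 0.231 (n = 4 each), and the UUO-2 libraries (0.483 to 0.991) overlapped those of both sham and UUO-7.

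Few members made up most of the signal. miR-411-5p held 76328 and miR-541-5p 58538 of the 171195 counts of the members in all libraries, 78.8% together. miR-300-3p, miR-409-3p, miR-410-3p and miR-381-3p followed with 4188 to 6633 counts each, and each of the others had 1223 or fewer. The 29 members with counts that passed no filter held 781 counts, 0.456% of all, with miR-329-3p the highest at 97. ECs gave 53.7% of all member counts, PDGFR-β+ cells 43.9%, Macs 1.92% and PT cells 0.453%.

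Within cell types, edgeR's quasi-likelihood test was run on all loci that passed its filter, and a locus was called at a Benjamini-Hochberg adjusted p (FDR) under 0.05 and a fold change over 1.5. The comparison of UUO-7 with sham in PDGFR-β+ cells sets the cells in this gate after 7 days of obstruction beside those of sham kidneys. Of the 37 members tested, 33 were called higher and 0 lower, where 34% of all 477 loci were called higher. Since only 9 members would have passed the filter without the UUO-7 libraries, the other 28 had to be high at UUO-7 to be tested, and their number is not support for a rise. A count free of this is that of the 28 members that passed the filter in ECs, all of them among the 37: 27 of the 28 were called higher in PDGFR-β+ cells. Over all 66 members with counts, without a filter, 60 had a higher pooled level at UUO-7 than in sham, 2 a lower level and 4 no count in either group.

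The best measured members give the sizes. miR-411-5p, the most abundant member, had 175, 96.4, 138 and 62.3 CPM in the sham PDGFR-β+ libraries, 79.7, 159, 80.8 and 144 CPM at UUO-2, 1786, 827 and 2215 CPM at UUO-7, and 1500, 150, 169 and 54.2 CPM in R-UUO. The UUO-7 libraries lay above all sham and UUO-2 libraries, sham and UUO-2 overlapped, and 1 R-UUO library was at the UUO-7 level. Its log2 fold change from sham to UUO-7 was 3.77 ± 0.842 (SE, edgeR adjusted p = 0.00168).

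miR-541-5p, the second most abundant, had 66.1, 36.6, 28.1 and 14.0 CPM in sham, 107, 107, 41.6 and 181 CPM at UUO-2, 1333, 665 and 2128 CPM at UUO-7, and 1231, 83.8, 106 and 34.5 CPM in R-UUO. Here 3 of the 4 UUO-2 libraries already lay above every sham library, and UUO-7 was above both groups without overlap. The log2 fold change was 5.23 ± 1.04 from sham to UUO-7 (edgeR adjusted p = 0.000753) and 1.57 ± 0.881 from sham to UUO-2, which did not pass (adjusted p = 0.290).

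The next 4 members in abundance rose together. In UUO-7 PDGFR-β+ libraries miR-409-3p stood at 76.9 to 324 CPM against 0 to 7.85 CPM in sham, and its log2 fold change was 5.49 ± 1.12 (edgeR adjusted p = 0.000956). For miR-300-3p the ranges were 61.2 to 198 and 4.10 to 11.9 CPM (log2 4.24 ± 0.891). miR-410-3p, the last member past the filter, stood at 87.0 to 219 against 4.10 to 12.1 CPM (4.18 ± 0.827). The groups did not overlap for any of these, nor for miR-381-3p, with 69.8 to 166 against 1.45 to 13.9 CPM (4.19 ± 0.915).

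**Figure D2:**
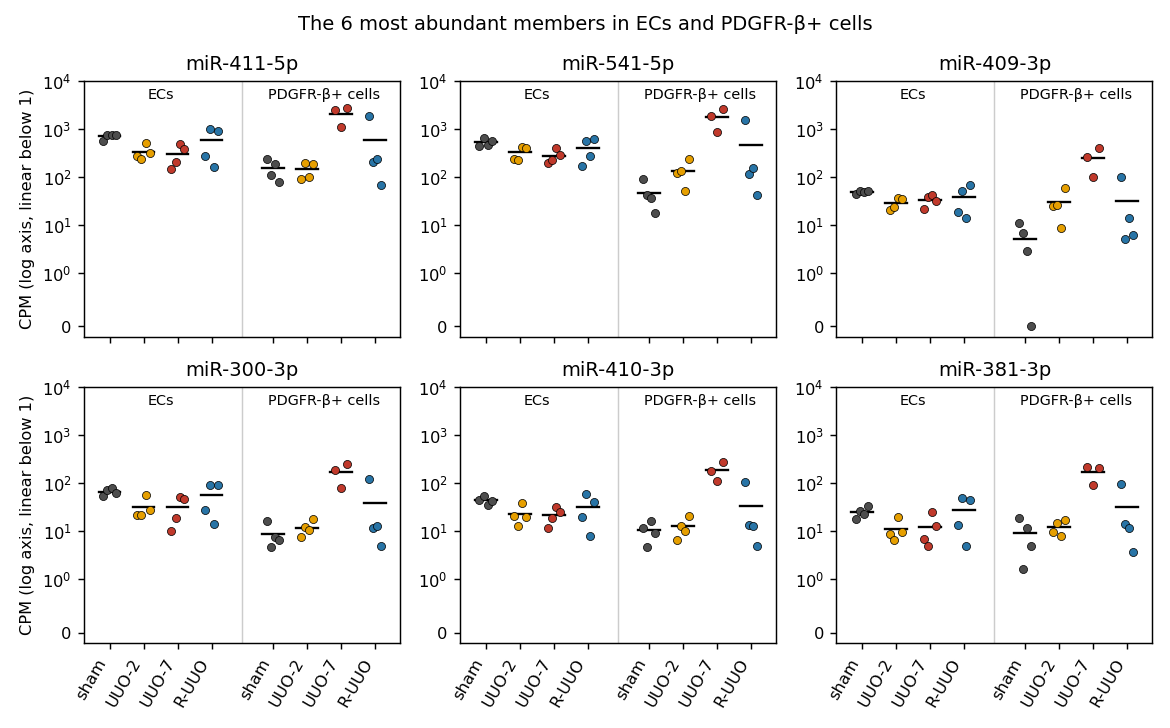
Level of the 6 most abundant members in each EC and PDGFR-β+ library (CPM scaled over all 63 libraries, on a log axis that is linear below 1), by condition, with 1 point a library and a bar at the group mean. All 6 are highest in UUO-7 PDGFR-β+ cells, and 1 R-UUO PDGFR-β+ library is close to that level.

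Members at the floor of detection in sham gave the highest fitted changes. Those fitted values depend on the prior count and are not sizes, so bounds from the counts are given instead. The 3 with the highest fitted log2 fold change among calls without overlap were miR-382-5p, studied before in kidney fibrosis, miR-494-3p and miR-1193-3p, each with 0 counts in the 4 sham libraries. miR-382-5p had 39, 8 and 31 counts in the UUO-7 libraries, which puts it at least 35.4-fold higher (3 counts over the sham group taken as the floor). For miR-494-3p (56 counts at UUO-7) the bound was at least 25.4-fold, and for miR-1193-3p (50 counts) at least 22.7-fold.
miR-382-5p: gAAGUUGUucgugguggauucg
miR-134-5p: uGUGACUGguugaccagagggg
miR-154-5p: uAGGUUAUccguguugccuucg

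miR-134-5p, which curbs the growth of dendritic spines in neurons, had 3, 0, 0 and 0 counts in sham, 2, 21, 21 and 7 at UUO-2, and 128, 41 and 108 at UUO-7. The pooled ratio of UUO-7 to sham was 126, with a 95% counting interval of 42.5 to 612. miR-154-5p had no count in sham and 42 at UUO-7, at least 19.0-fold higher. The 4 tested members that were not called, miR-299a-5p, miR-666-3p, miR-376b-3p and miR-377-5p, had log2 fold changes of 2.46 to 6.17 and 18 to 59 counts at UUO-7, and the libraries of the groups overlapped for miR-299a-5p and miR-377-5p.

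Over the 28 members that had passed in ECs, the log2 fold change from sham to UUO-7 in PDGFR-β+ cells had a median of 4.45, beside 0.50 over all loci tested. In all 28 the UUO-7 libraries lay above those of sham, which was so for 39.2% of all loci. Over the 37, most of which had to be high at UUO-7 to be tested, the median was 5.07, or 4.24 with the 9 members without sham counts set at their bounds, and 35 did not overlap. These values describe the 37 and are not support for a rise. By place in the annotation the median was 4.24 for the 23 members upstream of Mirg, 5.36 for the 8 in Mirg introns and 4.88 for the 6 in Mirg exons, with ranges that overlapped. The first member past the filter, miR-379-5p, changed by 3.60 ± 1.15 and the last, miR-410-3p, by 4.18 ± 0.827. On the Meg3 and Rtl1 side 14 of 15 tested miRNAs were called higher, with a median of 3.86. Without the mice numbered 2 in every condition 21 members were called, against 27 to 32 without any other number.

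**Figure D3:**
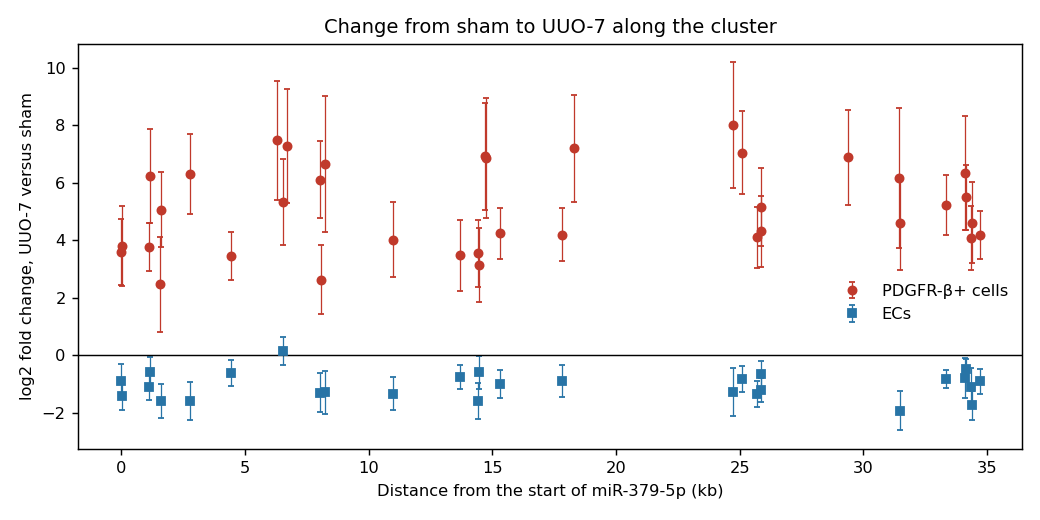
Fitted log2 fold change from sham to UUO-7 of each tested member (y) against its distance from the start of miR-379-5p in kb (x), in PDGFR-β+ cells (circles, 37 members) and ECs (squares, 28 members), with bars of 1 SE. All PDGFR-β+ values are positive and all EC values but that of miR-679-5p are negative, along the whole 34720 bases.

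From UUO-2 to UUO-7, 19 of the 28 members that had passed in ECs were called higher and 0 lower (23.5% of all loci were called higher), with a median log2 fold change of 3.64. Of the 37, to which the same restriction applies as above, 22 were called, with a median of 3.52. The count of the 37 was 8 without the mice numbered 2, 14 without those numbered 5, and 15 to 21 without any of the others. From sham to UUO-2 no member was called in either direction by edgeR (5.66% of all loci were called higher and 0.629% lower), 4 had an unadjusted p under 0.05, and DESeq2 called 1. The median was 1.12, 29 members had a positive and 8 a negative log2 fold change, and the 2 leading members parted here, miR-411-5p at -0.03 and miR-541-5p at 1.57. These comparisons share their UUO-2, UUO-7 or sham libraries and are not independent of each other.

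At 14 days after relief the PDGFR-β+ libraries were split. The summed level was 4146 CPM in replicate 1 and 404, 484 and 140 CPM in replicates 2, 4 and 5, so that 1 mouse stood at the UUO-7 level and 3 within or just above the sham range of 122 to 416 CPM. In this library miR-411-5p had 1500 and miR-541-5p 1231 CPM against at most 169 and 106 CPM in the other 3. The marker values of this library were a stromal sum of 93211 CPM (136953 to 160644 in the other 3), an endothelial sum of 465 CPM (549 to 706) and a macrophage sum of 122 CPM (137 to 208), and these 3 sums were lower than in the others. Within the stromal list, most of it miR-143-3p, miR-145a-5p at 912 CPM (407 to 772 in the others) and miR-199a-5p at 4109 CPM (3178 to 3967) were instead the highest of the group. The part of these differences in the result was not tested.

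Comparisons with R-UUO therefore rested on that library. With it, 14 of 37 members were called higher than in sham and 0 lower (27.9% of all loci were called higher), with a median log2 fold change of 2.94, and 0 were called lower than at UUO-7 (0.839% of all loci were, and 3.14% higher), though all 37 had negative values with a median of -1.91 and 10 an unadjusted p under 0.05, and DESeq2 called 1 lower. Without it, an alternative chosen after seeing the data, 28 members were tested, of which 0 were called higher than in sham (22% of all 460 loci were) and 25 lower than at UUO-7 (11.5% of all loci). Most of the members had to be high at UUO-7 to be tested, so the count of those lower than at UUO-7 is not support for a fall. Of the 25 among these 28 that had passed in ECs, 23 were called lower than at UUO-7, with a median log2 fold change of -3.97. With the library kept, 11 of the 28 that had passed in ECs were called higher than in sham and 0 lower than at UUO-7, with medians of 2.66 and -1.94. The count of members above sham was then 7 with the replicate block, 1 with only the compared groups and 27 without the filter. The count below UUO-7 was 6 with the block and 10 without the filter. Among the 14, the libraries of the groups did not overlap for miR-154-5p (0 counts in sham, 65 in R-UUO, at least 15.8-fold higher) and miR-487b-3p (0 and 26 counts, at least 6.31-fold). Replicate 1 held 41 of the 65 and 20 of the 26 counts, and without it the bounds were at least 7.42-fold and at least 1.85-fold.

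In ECs the values of most tested members were lower at UUO-7 than in sham, but few passed the test. From sham to UUO-7, 27 of the 28 tested members had a negative log2 fold change, with a median of -1.06 beside -0.05 over all loci. The edgeR test called 2 of them lower and 0 higher (5.33% of all loci were called lower and 6.18% higher), and in 11 the UUO-7 libraries lay below all sham libraries, which was so for 13.6% of all loci. Of the 28, 23 would have passed the filter without the sham libraries. The others had to be high in sham to be tested, so the values of the 28 describe them and are not support for a fall. Over all 66 members with counts, without a filter, 51 had a lower pooled level at UUO-7 than in sham. A higher level was seen for 8, and 7 had no count in either group. Macrophage markers summed to 20.7 to 61.7 CPM in sham EC libraries and 112 to 193 CPM at UUO-7, and stromal markers to 11377 to 24455 and 8211 to 17474 CPM. miR-150-5p, listed beforehand as a lymphocyte marker, was at 2767 to 3651 CPM in sham and 1893 to 2695 CPM at UUO-7. In sham it was far higher in these ECs than in the CD45+ Macs (92.4 to 164 CPM), so it is not read here as a measure of lymphocytes. At UUO-7, replicates 2 and 3 had the lowest summed levels of the members (433 and 564 CPM) and the lowest stromal sums (8260 and 8211 CPM). The part of these differences in the result was not tested.

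The called members were miR-369-3p and miR-379-3p. miR-369-3p, known for binding an AU-rich element of the TNF message, had 1.55, 2.33, 2.18 and 2.13 CPM in sham ECs and 0.57, 0.19, 0.53 and 0.96 CPM at UUO-7, a log2 fold change of -1.75 ± 0.502 (edgeR adjusted p = 0.0280). miR-379-3p had 7.25, 5.62, 7.71 and 4.37 CPM in sham and 1.53, 1.56, 3.70 and 2.24 CPM at UUO-7 (-1.44 ± 0.473, adjusted p = 0.0492). Both groups were apart for both members, but at most 28 counts in a UUO-7 library stood behind these values. Both calls were lost when the mice numbered 2 or 3 were left out, with log2 fold changes of -1.66 and -1.38 for miR-369-3p and -1.33 and -1.08 for miR-379-3p. In each fit without those numbered 1, 4 or 5, 1 of the calls was lost, and the count was 0 to 3 over all such fits and 1 to 9 over the other alternatives. Among these, miR-379-3p was not called with the replicate block (-1.57, edgeR adjusted p = 0.0790) or with overlapping loci counted once (-1.34, adjusted p = 0.0705). Without the filter miR-369-3p was not called (-1.62, adjusted p = 0.0798).

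The abundant members fell short of the threshold in ECs. miR-411-5p had 339, 494, 475 and 459 CPM in sham ECs, 202, 173, 331 and 210 CPM at UUO-2, 103, 142, 322 and 243 CPM at UUO-7, and 196, 598, 115 and 615 CPM in R-UUO. All 8 libraries of obstructed kidneys were below all sham libraries, and the R-UUO libraries fell on both sides. The log2 fold change from sham to UUO-7 was -1.13 ± 0.442 (edgeR adjusted p = 0.0927), and that of miR-541-5p was -0.85 ± 0.312 (adjusted p = 0.0752). At UUO-2 no member was called in ECs in either direction by edgeR (0.213% of all loci were called lower), 3 had an unadjusted p under 0.05, DESeq2 called 0, and 26 of 28 were negative with a median of -0.64. The restriction on the 28 given above applies here too. Between UUO-2 and UUO-7 edgeR called 0 (1.49% of all loci were called higher and 0.426% lower), DESeq2 called 1 lower, and 1 had an unadjusted p under 0.05.

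After relief the EC libraries were split in pairs. Their summed levels were 564 and 531 CPM in replicates 1 and 4 and 1958 and 1902 CPM in replicates 2 and 5, the latter above every sham EC library. The mouse with the high R-UUO PDGFR-β+ library, replicate 1, was thus among the low ones in ECs. The stromal marker sum in these EC libraries was 20702 and 7729 CPM in replicates 1 and 4 and 46289 and 36334 CPM in replicates 2 and 5, and its part in the split was not tested. No member was called between R-UUO and UUO-7 or between R-UUO and sham by edgeR or DESeq2 (0.853% and 11.7% of all loci were called higher and 0.213% and 5.12% lower), with 8 and 1 members at an unadjusted p under 0.05.

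The cell types were then compared in each condition in 1 fit of all 63 libraries, in which 35 members were tested. Those of PDGFR-β+ cells with ECs were chosen after earlier results of these data. The locus had been seen there to be high in sham ECs and in UUO-7 PDGFR-β+ cells. In sham, PDGFR-β+ cells were lower than ECs for all 35, with 29 called (23.1% of all loci were called lower), 29 without overlap (25.2% of all loci), and a median log2 fold change of -3.05, or -2.78 with the 8 members at 0 counts set at their bounds. Part of the 35 had to be high in sham ECs to be tested. Of the 23 that passed in ECs without the sham libraries, 20 were called lower, with a median of -2.90. These 23 still passed through EC libraries of the other conditions, so this count too is not free of a choice that favours ECs. miR-411-5p differed by -2.21 ± 0.737 (edgeR adjusted p = 0.0131) and miR-541-5p by -3.49 ± 0.867 (adjusted p = 0.000990). The 3 called members with the largest fitted difference and no overlap were miR-382-5p, miR-543-3p and miR-487b-3p, at least 13.3-, 12- and 8.96-fold lower. The count was 15 without the mice numbered 2, 16 without those numbered 4, and 18 with only the compared groups in the fit.

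At UUO-2, 3 were called lower and 0 higher (13.4% and 15.4% of all loci), and the median was -1.08. Whether this differed from sham was not tested. At UUO-7 all 35 had higher values in PDGFR-β+ cells, 27 were called (27.6% of all loci were called higher), 31 did not overlap (31.9% of all loci), and the median was 2.81 beside 0.40 over all loci. Of the 28 that had also passed in ECs, 20 were called, with a median of 2.69. For miR-411-5p the difference was 2.77 ± 0.779 (edgeR adjusted p = 0.00308) and for miR-541-5p 2.68 ± 0.862 (adjusted p = 0.00938). The count at UUO-7 was 14 without the mice numbered 2, 10 without those numbered 5 and 15 with DESeq2.

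The largest fitted differences at UUO-7 among calls without overlap were those of miR-666-3p, miR-666-5p and miR-376a-3p. Both arms of miR-666 had 11 to 54 counts in each UUO-7 PDGFR-β+ library and 0 to 6 in each EC library. For miR-666-3p, with 2 counts in the 4 EC libraries, the pooled ratio was 44.2 (95% counting interval 11.6 to 376). miR-376a-3p, of a family known for A-to-I editing, had 38 counts against 3, a ratio of 24.4 (7.73 to 123).

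In R-UUO the order of the 2 cell types depended on 1 PDGFR-β+ library. With all libraries no member was called in either direction by edgeR or DESeq2 (20.1% of all loci were called higher and 10.3% lower), 0 had an unadjusted p under 0.05, and the median was 0.01. Without R-UUO PDGFR-β+ replicate 1, left out after seeing the data, 8 of 28 members tested were called lower than in ECs (12.2% of all 662 loci) and 0 higher (19.6%). All 28 had negative values, with a median of -1.87. Of the 28, 26 had passed the filter in ECs, a choice that favours ECs.

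A contrast for the turn itself was the change from sham to UUO-7 in PDGFR-β+ cells minus that in ECs. It was run with this turn already seen in the same data, so its calls are not independent support for it. The contrast was positive and called for all 35 members (22.4% of all loci were called higher). Its median was 6.17 on the log2 scale, beside 0.55 over all loci. Of the 35, 7 had passed the filter in PDGFR-β+ cells but not in ECs, so that high UUO-7 PDGFR-β+ values could bring them into this fit. The other 28 were all called, with a median of 5.50. As 5 of these passed in ECs only through the sham libraries, where they were high, the 23 that passed there without sham are given too, all of them called, with a median of 5.36. The contrast was 4.98 ± 1.07 for miR-411-5p (edgeR adjusted p = 0.000240) and 6.17 ± 1.22 for miR-541-5p (adjusted p = 8.04e-05). Of the 15 miRNAs tested on the Meg3 and Rtl1 side 14 were called. The count of members was 28 to 40 over the alternatives. Marker miRNAs also differed between sham and UUO-7 PDGFR-β+ libraries. Endothelial markers summed to 2043 to 2587 CPM in sham and 618 to 1586 CPM at UUO-7, and macrophage markers to 59.9 to 176 and 277 to 700 CPM, with the highest value in replicate 5, the library with the highest level of the members. PT markers summed to 2085 to 3852 CPM in sham and 1460 to 1654 CPM at UUO-7. The 4 stromal markers of the miR-143 and miR-145 hairpins were lower at UUO-7, miR-143-3p at 125322 to 152024 against 320845 to 392968 CPM. The 4 of the miR-199a and miR-214 hairpins were higher, miR-199a-3p at 14174 to 17575 against 3399 to 4134 CPM. The part of these shifts in the members' change was not tested.

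**Figure D4:**
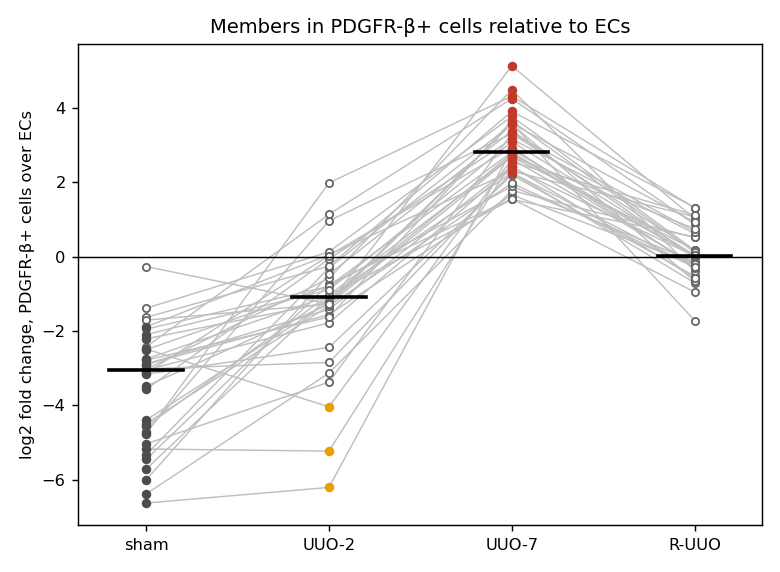
Fitted log2 fold change of PDGFR-β+ cells over ECs for the 35 tested members in each condition, with filled points for called members, open points for the others, a grey line for each member and a bar at the median (-3.05, -1.08, 2.81 and 0.01 from left to right). The lowest sham values belong to members at or near 0 counts in PDGFR-β+ cells and depend on the prior count.

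Macs and PT cells had low levels in most libraries, with summed levels of 1.35 to 268 CPM in Macs and 5.56 to 139 CPM in PT cells over all conditions. In sham, ECs were above Macs for all 35 members, all called (32.2% of all loci were), and above PT cells for all 35, with 31 called (30% of all loci). Only 3 members passed the filter in Macs and 2 in PT cells, so nearly all of the 35 entered this fit through EC or PDGFR-β+ libraries, and these counts are not support for a difference. In the latter 30 members had no count in PT cells, which puts ECs at least 1.19- to 98.4-fold higher, by member. PDGFR-β+ cells were above Macs with 16 called and above PT cells with 6 called (29.7% and 25.6% of all loci). With only the compared groups in the fit, ECs led Macs for 20 members and PT cells for 14. PDGFR-β+ cells then led Macs for 4 and PT cells for 2. miR-411-5p was the only member counted in all 63 libraries.

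In Macs 3 members could be tested. miR-541-5p was called higher at UUO-7 than in sham (log2 3.44 ± 1.08, edgeR adjusted p = 0.0138), the only one called (26.3% of all loci were called higher). Its levels were 14.8, 245, 12.8 and 33.8 CPM at UUO-7 in replicates 2, 3, 4 and 5 against 1.69, 2.81, 0 and 23.1 CPM in sham, so that the groups overlapped and replicate 3 was far above the rest. Between sham and UUO-7 Macs the macrophage marker sum went from 35059 to 42123 CPM down to 18344 to 21570 CPM, and stromal miR-199a-3p from 72.4 to 109 CPM up to 273 to 360 CPM and miR-214-3p from 1.59 to 3.29 CPM up to 26.6 to 42.2 CPM, while the stromal sums overlapped (2003 to 5012 and 3165 to 4652 CPM). miR-150-5p went from 92.4 to 164 CPM up to 454 to 744 CPM. PT markers went from 3511 to 5216 CPM down to 1237 to 2263 CPM. The part of these shifts in the result was not tested. All 3 members were called higher at UUO-7 than at UUO-2 (16.2% of all loci). Without that library, an alternative chosen after seeing the data, neither comparison called any member, and the log2 fold change of miR-541-5p fell to 1.39 against sham (adjusted p = 0.248) and from 4.15 to 2.21 against UUO-2. With the replicate block neither was called (2.86, edgeR adjusted p = 0.143, and 3.45, adjusted p = 0.106), but its numbers mark different mice between conditions. The call against sham was lost without the mice numbered 1 (2.92, adjusted p = 0.0615), while without those numbered 4 the log2 fold change was 6.03 (adjusted p = 0.00114). In the other Mac comparisons, UUO-2 with sham and R-UUO with sham or UUO-7, edgeR and DESeq2 called 0 and 0 had an unadjusted p under 0.05. Of all loci, 18.4% were called higher and 9.19% lower at UUO-2, 21.4% and 10.5% in R-UUO against sham, and 12.7% and 7.22% in R-UUO against UUO-7. At UUO-7, 16.8% of all loci were called lower than in sham and 14.4% lower than at UUO-2.

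In PT cells miR-541-5p, 1 of 2 members tested, was called higher at UUO-7 (2.57 ± 0.932, edgeR adjusted p = 0.0333) and in R-UUO (2.53 ± 0.953, adjusted p = 0.0429) than in sham, where 25.5% and 25.8% of all loci were. Stromal markers summed to 1621 to 3512 CPM in sham PT libraries, 7060 to 18272 CPM at UUO-7 and 3845 to 25998 CPM in R-UUO, and PT markers to 99861 to 130232, 32310 to 53406 and 16099 to 65004 CPM, in both cases without overlap with sham. Macrophage markers summed to 73.1 to 106 CPM in sham and 136 to 237 CPM at UUO-7. miR-150-5p was at 20.8 to 30.0 and 36.2 to 73.65 CPM. In R-UUO both overlapped sham. Epithelial markers of the miR-200 family summed to 5518 to 5899 CPM in sham, 8426 to 11187 CPM at UUO-7 and 6760 to 8748 CPM in R-UUO. The part of these shifts in the calls was not tested. The UUO-7 level of miR-541-5p was 64.5 CPM in replicate 3 and 5.78 to 12.9 CPM in the others, against 0 to 8.63 CPM in sham, and without that library, left out after seeing the data, it was not called (1.26). The UUO-7 call was also lost without the mice numbered 2 (2.45, edgeR adjusted p = 0.0697) or 4 (2.98, adjusted p = 0.054). Its R-UUO levels were 37.5, 5.49, 40.7 and 7.72 CPM in replicates 1, 2, 4 and 5 and overlapped those of sham. Endothelial markers summed to 1563 and 1889 CPM in replicates 1 and 4, where it was high, and to 583 and 774 CPM in replicates 2 and 5, against 565 to 819 CPM in sham PT libraries. Stromal markers summed to 25998 CPM in replicate 1 and 3845 to 5875 CPM in the others. Their part was not tested either. The R-UUO call was lost in each fit without the mice numbered 1, 2, 3 or 4, with log2 fold changes of 2.86, 2.49, 2.27 and 2.19, and by library size only (1.87, adjusted p = 0.115), and no member was called with only the compared groups. Neither member was called by edgeR or DESeq2 between UUO-2 and UUO-7 (2.73% of all loci were called higher and 1.52% lower), where 1 had an unadjusted p under 0.05. Likewise 0 were called between sham and UUO-2 (14.8% and 4.24% of all loci) or between UUO-7 and R-UUO (0.606% and 0.909%), with 0 at an unadjusted p under 0.05. Against sham, 17.6% of all loci were called lower at UUO-7 and 13% in R-UUO. The high Mac and PT libraries came from the same mouse, UUO-7 number 3, whose PDGFR-β+ library is the one the authors set aside. Stromal markers summed to 3165 CPM in its Mac library (3307 to 4652 in the other UUO-7 Macs) and 7475 CPM in its PT library (7060 to 18272 in the others), and endothelial markers to 606 CPM (796 to 938) and 918 CPM (661 to 767). The stromal sums are mostly miR-143-3p. Of the other markers in them, miR-199a-3p was highest in this mouse in both, at 360 CPM in Macs (273 to 358 in the others) and 206 CPM in PT cells (98.6 to 159), and in PT cells miR-199a-5p (22.8 against 15.1 to 18.8 CPM) and miR-214-3p (7.27 against 4.94 to 6.88 CPM) were too, while in Macs both were within the range of the others. Both arms of miR-145a and miR-143-5p were lowest in this mouse in both cell types, with miR-145a-5p at 18.5 CPM in Macs (25.6 to 39.8 in the others) and 50.9 CPM in PT cells (76.1 to 109). The part of these markers in the high values was not tested.

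Ratios of 1 member to another within a library need no scaling. The following ratios were picked after their values had been seen and are given without a test. miR-381-3p had 0.406 ± 0.116 counts for each count of the near-identical miR-300-3p in the 16 EC libraries (range 0.265 to 0.676) and 0.991 ± 0.300 in the 15 PDGFR-β+ libraries (0.353 to 1.56). At UUO-7 the ratio was 0.840 to 1.18 in PDGFR-β+ cells and 0.265 to 0.676 in ECs, without overlap, and 14 of the 15 PDGFR-β+ libraries lay above all EC libraries. How reads that fit both sequences were placed is not stated in the sources used here.

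miR-411-5p and miR-541-5p, which start 1.12 and 33.4 kb after miR-379-5p, also shifted against each other. Their ratio was 2.63 to 4.91 in the 4 sham PDGFR-β+ libraries, and 0.747 to 1.94 in the 11 others of that cell type and 0.598 to 1.79 in the 16 EC libraries. Sham PDGFR-β+ cells thus stood apart, with miR-411-5p at 62.9% ± 4.33 of the member counts and miR-541-5p at 18.4% ± 5.01 (n = 4). At UUO-7 the shares were 42.1% ± 2.67 and 35.0% ± 2.31 (n = 3), close to the 39.8% ± 5.75 and 39.0% ± 5.65 of UUO-7 ECs (n = 4).

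**Figure D5:**
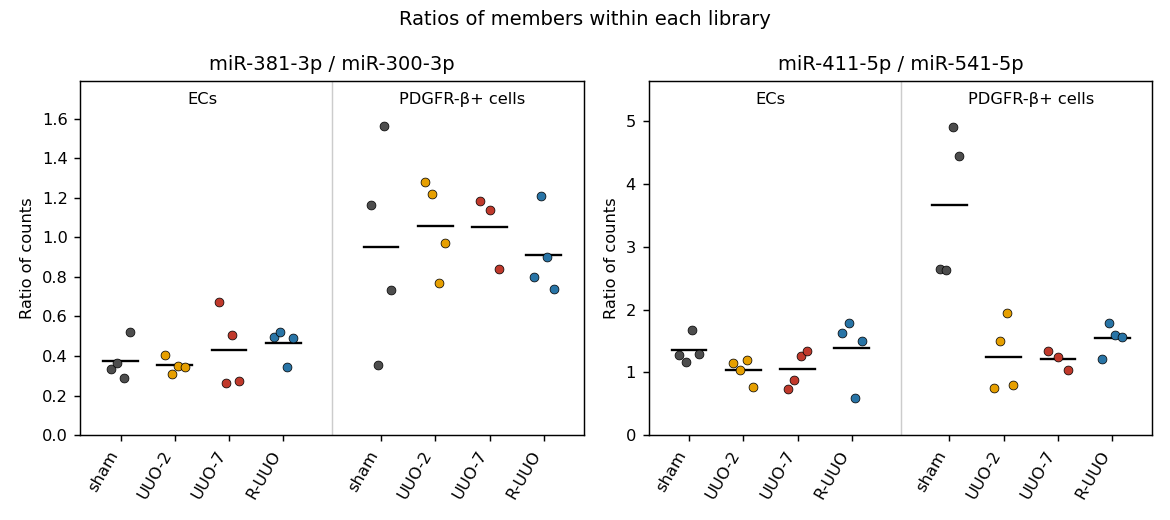
Ratio of the counts of miR-381-3p to miR-300-3p (left) and of miR-411-5p to miR-541-5p (right) within each EC and PDGFR-β+ library, by condition, with 1 point a library and a bar at the group mean. The left ratio is higher in PDGFR-β+ cells than in ECs in 14 of 15 libraries, and the right ratio is highest in the 4 sham PDGFR-β+ libraries (2.63 to 4.91).

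Arm use was read where counts allowed it. Hairpins with at least 100 counts over both arms together in every condition numbered 8 in ECs, 5 in PDGFR-β+ cells, 1 in Macs and 0 in PT cells. The 5p arm gave 98.8% ± 0.449 of the miR-411 counts over 16 EC libraries and 99.2% ± 1.4 over 15 PDGFR-β+ libraries, and 99.99% and over 99.99% of those of miR-541. miR-134 gave 97.8% ± 3.84 from its 5p arm in ECs. The 3p arm led in miR-300, miR-381 and miR-410, where the 5p share was at most 0.278% on average in either cell type, and in miR-409, with 5.01% ± 2.86 from the 5p arm in ECs. Between these stood miR-485, with 74.6% ± 8.67 from the 5p arm in ECs.

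Members of lesser abundance showed a like pattern at their own levels. Per library at UUO-7 in PDGFR-β+ cells, miR-329-5p had 8.81 to 17.1 CPM (0.70 to 1.54 in sham), a log2 fold change of 3.44 ± 0.832 (edgeR adjusted p = 0.00300), the smallest of the called. miR-668-3p, studied in ischemic kidney injury as a regulator of mitochondrial shape, had 12.3 to 20.5 CPM (0 to 2.95 in sham), with 4.10 ± 1.05. The 5p arm of miR-485 had 9.91 to 22.7 CPM (0 to 0.98 in sham), with 5.17 ± 1.35. In ECs these 3 had log2 fold changes of -0.62 ± 0.442, -1.36 ± 0.454 and -1.21 ± 0.427, none of them called.

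The members that share a seed moved with the rest. miR-411-3p, the other arm of the most abundant member, had 12.2, 7.49 and 13.9 CPM in UUO-7 PDGFR-β+ cells and 2 counts in all of sham, a pooled ratio of 91.8 (95% counting interval 24.9 to 766). miR-379-3p had 15.0, 5.73 and 15.8 CPM at UUO-7 and 0 to 2.49 CPM in sham (log2 3.81 ± 1.39, edgeR adjusted p = 0.0310). In UUO-7 ECs, by the 63-library scaling, they stood at 4.90 ± 2.96 and 3.42 ± 1.66 CPM (n = 4), and in UUO-7 PDGFR-β+ cells at 14.7 ± 4.24 and 16.0 ± 7.40 CPM (n = 3). The difference between the cell types was not called for either (adjusted p = 0.207 and 0.0562).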

How the data were processed

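The authors sequenced small RNA as 150 bp paired-end reads, trimmed them with Trim Galore 0.4.1 and cutadapt 1.1, aligned them with ShortStack (Bowtie) to GRCm38 and miRBase, and deposited raw counts per locus of a mature miRNA. Strand use and the placing of multi-mapping reads are not given in the sources used here.

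The members, all lists and the comparisons of PDGFR-β+ cells with ECs were chosen with earlier results of these data known. In R 4.3.3, edgeR 4.0.16 fitted the counts of 1 cell type (330 to 477 loci after filterByExpr) or of all 63 libraries (671 loci), with TMM factors and Benjamini-Hochberg adjustment over all loci tested in each comparison (29 comparisons). Each SE is the log2 fold change over the root of the F statistic. The fits were tested on simulated data. Members named with values are the 12 with the highest mean CPM, the ends of the cluster, per comparison the 3 largest called changes without overlap, their other arms and shared seeds; others are named as exceptions. Counting intervals and floors cover counting error only.

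Replicate pairs of a group differed far beyond sampling noise (chi-square per degree of freedom 8.96 to 2258). Libraries of 1 mouse pair across cell types by design, with a median correlation of their deviations of 0.065, and -0.003 between ECs and PDGFR-β+ cells. Numbers shared between conditions mark different mice. Alternatives were DESeq2 1.42.0, library size only, TMM without the locus, no filter, no fold threshold, only the compared groups, overlapping loci counted once, a replicate block, each replicate number left out, and 3 libraries left out after seeing the data.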

Additional observations from a re-analysis of the deposited data

Results flagged for a closer look

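In groups of 4 libraries, the library at either end was set against the other 3 by its gap as a share of the group's range, for the summed level of the members in 15 groups and for the 6 most abundant members in 42 groups of ECs and PDGFR-β+ cells. Chance marks about 1 such group in 20, and 12 of the 57 were marked, 8 of them among the 42; the members share libraries, so these are not separate events.

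R-UUO PDGFR-β+ replicate 1 was marked for the summed level (4146 CPM) and for all 6 members, on the scale of all 63 libraries: miR-411-5p at 1847 CPM, miR-541-5p at 1516, miR-300-3p at 123, miR-410-3p at 104, miR-409-3p at 101 and miR-381-3p at 98.2 CPM. Among the sums, UUO-7 Mac replicate 3 (268 CPM), UUO-7 PT replicate 3 (139 CPM) and sham Mac replicate 4 (47.8 CPM) also stood above their groups. Endothelial markers summed to 3386 CPM in this sham Mac library and 322 to 1538 CPM in the other 3, and their part was not tested. Of single members, miR-411-5p was low in sham EC replicate 1 (563 CPM) and miR-300-3p high in UUO-2 EC replicate 3 (55.8 CPM).

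The change from sham to UUO-7 differed between PDGFR-β+ cells and ECs for all 35 members tested (edgeR, difference of the changes). The contrast was run with this pattern already seen in the same data. The share of all loci called is given with this contrast in the Results. Of the 35, 7 had not passed the filter in ECs, so that high UUO-7 PDGFR-β+ values could bring them in. The other 28 were all called, and 23 members passed in ECs without the sham libraries. The log2 difference was 4.98 for miR-411-5p and 6.17 for miR-541-5p. The 3 largest fitted values, 9.51 for miR-382-5p, 9.40 for miR-487b-3p and 9.08 for miR-376a-3p, belong to members without a count in sham PDGFR-β+ cells and depend on the prior count.

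The count table also has a pooled column, the authors' value over all of their libraries, which was used in no comparison. It holds 466998 counts of the members against 171195 in the 63 libraries. Of the counts by which it exceeds the 63 libraries over all loci, 0.689% fall on the members, against 0.0651% in the 63 libraries together and 0.770% in the highest single one. The libraries behind this difference were not analysed here.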

How the results depend on the processing

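The counts that moved most were those of comparisons with R-UUO in PDGFR-β+ cells, between PDGFR-β+ cells and ECs at UUO-7, and of ECs over Macs and PT cells. The cause was not tested unless the setting itself used fewer samples or more loci. The rise in PDGFR-β+ cells and its difference from ECs kept their direction under each alternative run. Counts below are of members called. Except for fits without R-UUO PDGFR-β+ replicate 1, the share of all loci called under a setting is not given, here or in the Results. Such counts show only how the calls moved. The fit without the filter is not on the scale of the main one. For miR-541-5p in Macs, UUO-7 against sham, its edgeR adjusted p was 3.41e-22 at log2 3.41, against 0.0138 at 3.44.

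With DESeq2, 15 were called higher in PDGFR-β+ cells than in ECs at UUO-7, 1 higher at UUO-2 than in sham and 1 lower after relief than before it in PDGFR-β+ cells, and in ECs 5 lower at UUO-7 than in sham and 1 lower than at UUO-2. The fall in ECs was called for 4 with TMM factors made without the locus, 4 by library size only, 6 without the filter, 9 with only the compared groups, 5 with the replicate block and 1 with overlapping loci counted once. By library size only, 2 were called higher in Macs at UUO-7 and 0 in R-UUO PT cells, each against sham, and the summed level was 1078 CPM in sham ECs, 18.9 CPM in UUO-2 Macs and 17.3 CPM in sham PT cells.

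Without the filter, PDGFR-β+ cells had 27 higher in R-UUO and 5 higher at UUO-2 than in sham, and 10 lower after relief than before it. ECs had 2 lower at UUO-2 than in sham and 2 higher in R-UUO than at UUO-7, Macs 4 and 7 higher at UUO-7 than in sham and at UUO-2, 2 higher in R-UUO than in sham and 2 lower than at UUO-7, and PT cells 2 higher on day 7 than on day 2 and 1 lower after relief. There, 7 were lower in PDGFR-β+ cells than in ECs at UUO-2 and 1 lower in sham ECs than in PT cells. With only the compared groups, ECs led Macs for 20 and PT cells for 14, PDGFR-β+ cells led them for 4 and 2 and trailed ECs for 18 in sham, R-UUO against sham gave 1 in PDGFR-β+ cells and 0 in PT cells, and UUO-2 against sham gave 1 lower in ECs.

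With the replicate block, 7 were higher in R-UUO than in sham and 6 lower than at UUO-7 in PDGFR-β+ cells, and 0 higher at UUO-7 in Macs against sham or UUO-2. Besides these and the 5 in ECs given above, it moved no count by over 1.5 times. Between conditions the numbers mark different mice, and same-numbered libraries had median correlations of -0.073 to 0.036. Calls lost or gained with this block therefore say little about those calls.

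Leaving out each replicate number gave these ranges. In PDGFR-β+ cells, 21 to 32 were higher at UUO-7 than in sham, 8 to 21 than at UUO-2, 0 to 4 higher at UUO-2 than in sham, 2 to 18 higher in R-UUO than in sham and 0 to 26 lower than at UUO-7. Against ECs these cells had 15 to 29 lower in sham, 2 to 5 lower at UUO-2, 10 to 25 higher at UUO-7 and 0 to 11 lower in R-UUO, and against sham Macs 10 to 16 higher. ECs had 0 to 3 lower at UUO-7 than in sham and 0 to 2 higher in R-UUO than at UUO-7. Macs had 0 to 3 and 0 to 4 higher at UUO-7 than in sham and at UUO-2, 0 to 2 higher in R-UUO than in sham and 0 to 1 lower than at UUO-7, and PT cells 0 to 1 higher at UUO-7 and in R-UUO than in sham. The log2 fold change of miR-668-3p in sham PDGFR-β+ cells over Macs, 3.48 with all mice, ran from -0.27 without those numbered 1 to 5.65 without those numbered 4.

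Chosen after seeing the data, leaving out R-UUO PDGFR-β+ replicate 1 gave 0 higher than sham, 25 lower than UUO-7 and 8 lower than ECs. Without UUO-7 Mac replicate 3, 0 were called against sham and 0 against UUO-2, and without UUO-7 PT replicate 3, 0 against sham. With a minimum of 20 counts, arm use could be read in 20 hairpins of ECs, 11 of PDGFR-β+ cells, 3 of Macs and 1 of PT cells. The floor of 3 counts was 0.438 to 1.62 CPM in ECs and 0.474 to 1.45 CPM in PDGFR-β+ cells. It was 0.309 to 1.68 CPM in Macs and 0.674 to 4.13 CPM in PT cells. Depth limits what can be read for members near this floor.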
